A study of Rattus norvegicus with 9 samples.

Results

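The genes described here encode 10 enzymes that modify and crosslink collagen. They comprise the lysyl oxidase family (Lox, Loxl1, Loxl2, Loxl3 and Loxl4) and the lysyl hydroxylases (Plod1, Plod2 and Plod3). P4ha1 and P4ha2, which encode catalytic alpha subunits of prolyl 4-hydroxylase, complete the set. The 10 genes were chosen by symbol from the 21923 genes of the deposited table, where all were found. All 10 passed the filter on low counts that left 12364 genes. RNA came from adipose-derived stromal cells, fibroblast-like cells that grow out of digested inguinal fat, here from GFP-transgenic rats. Con libraries were made from passage 4 cells. Vitro libraries came from passage 4 cells that stayed in an incubator and were harvested together with the third group. Vivo libraries came from passage 4 cells placed in the fat of nude mice and recovered after 7 days. Each group has 3 libraries, and the cells of all groups carry the GFP transgene. The strain, sex and age of the animals, the number of donors and hosts, and the way in which rat cells were recovered from mouse tissue were not stated in the labels. Nothing says that replicates came from separate animals or cultures, so p-values cover variation among libraries that may be technical.

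A collagen chain is modified while it is still in the endoplasmic reticulum. Prolyl 4-hydroxylase, a tetramer of alpha subunits and the P4hb beta subunit, hydroxylates prolines, which lets the triple helix stay folded at body temperature. Lysyl hydroxylases hydroxylate lysines in the helix and, in the case of Plod2, in the telopeptides at the chain ends, which sets the kind of crosslink that forms later. Both kinds of hydroxylase need iron, 2-oxoglutarate, oxygen and ascorbate. Outside the cell, the copper-dependent lysyl oxidases convert lysines and hydroxylysines of collagen, and lysines of elastin, to aldehydes that condense into crosslinks between molecules. In fibroblasts P4ha1, P4ha2, Plod2, Lox and Loxl2 are known targets of the hypoxia-inducible factors, and TGF-beta raises several of the same genes.

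The libraries held 17484607 to 18355242 counts each, so depth differed little. All 9 stromal markers were detected in every group, at a summed 26180 to 45710 CPM (read count normalised to library size, scaled by TMM). Most of this was Col1a1, at 21460 to 37550 CPM. Leukocyte markers summed to at most 32.16 CPM, most of it Cd14, with Cd163 and Cd3e at 0 in all libraries. Endothelial markers summed to at most 10.52 CPM in Con and Vitro and to 21.63 to 28.5 in Vivo, where Kdr made up most and Cldn5 was at 0. Adipocyte markers summed to at most 5.23 CPM. Immediate early genes, which respond to tissue dissociation, summed to 598.2 to 841.4 CPM in Con, 467.7 to 516.4 in Vitro and 1822 to 3559 in Vivo. Their part in the Vivo results, like that of the endothelial markers, was not tested. Of the Vivo libraries, replicate 3 differed most. Its correlation with the other Vivo libraries across genes, which are not independent, was 0.949 and 0.951, against 0.970 to 0.986 for the other pairs of a group. The deviation of a library was its log2 CPM minus the mean of the other libraries of its group. For Vivo replicate 3 it had a Spearman's rho of -0.522 with gene length, where Vivo replicates 1 and 2 had 0.403 and 0.450. These values are not independent, since each library enters the mean used for the others. Mitochondrial transcripts took 3.48% of the counts of Vivo replicate 3, against 2.07% to 2.54% elsewhere. Each call on the 10 genes was therefore also computed without this library.

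Plod2 and P4ha2 were lower in the Vivo libraries than in both cultured groups, and Loxl3 was lower than in Con. No enzyme gene passed the test in the higher direction, and none passed between Vitro and Con. In Vivo against Con, 3 of 10 genes fell and 0 rose, where 9.73% of all genes tested were called (4.56% lower and 5.17% higher, each as a share of all genes tested). None of the 3 calls was made without Con replicate 3, 1 was made without Con replicate 1 or Vivo replicate 2, and 4 (3 lower, 1 higher) without Vivo replicate 3. In Vivo against Vitro, 2 of 10 fell and 0 rose, where 10.9% of all genes were called, 5.52% lower and 5.38% higher. There 1 was called without Vitro replicate 1, Vitro replicate 2 or Vivo replicate 2, and 4 without Vivo replicate 3. The median log2 change of the 10 genes was -0.27 in Vivo against Con and -0.01 in Vivo against Vitro, beside 0.01 and 0.02 over all genes tested. Both Plod2 and P4ha2 passed in the 2 comparisons, which is 2 of 10 where 3.1% of all genes were lower than both cultured groups. Both comparisons use the Vivo libraries. Calls are adjusted p-values under 0.05 from edgeR's quasi-likelihood test. In bulk RNA a smaller share of cells that express a gene and less of its RNA per cell cannot be told apart.

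**Figure D1:**
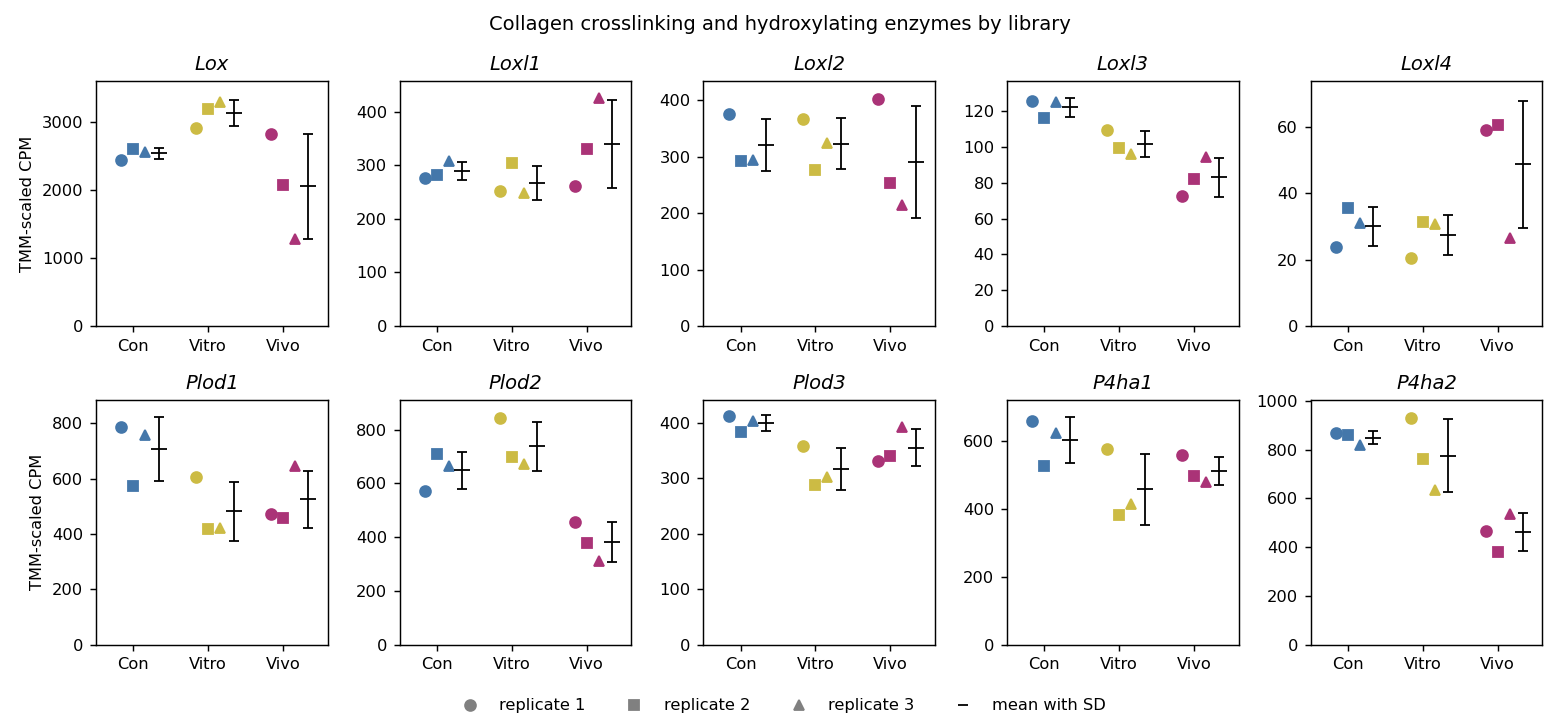
TMM-scaled CPM (y axis, starting at 0, on a separate scale for each gene) of the 10 enzyme genes in the 9 libraries, by group (x axis). Symbols are libraries and black bars the mean with SD over 3 libraries. For Plod2 and P4ha2 every Vivo library lies below every Con and Vitro library, while for Lox, Loxl1, Loxl2 and Loxl4 the Vivo libraries are spread widely.

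Of the alpha subunits of prolyl 4-hydroxylase, P4ha2 passed the test. P4ha2 (ENSRNOG00000033663), which encodes the subunit that collagen-rich connective tissue adds to the housekeeping one, stood at 867.5, 859 and 820 CPM in the Con libraries, at 930, 763 and 633 in Vitro and at 466, 380 and 537 in Vivo. All 3 Vivo values lay below all 6 values of the cultured groups. P4ha2 fell by 0.88 ± 0.17 on the log2 scale against Con (SE, adjusted p = 0.0159) and by 0.75 ± 0.17 against Vitro (adjusted p = 0.0236). These are 1.84-fold and 1.68-fold lower levels. Both calls could be lost with 1 library: the adjusted p against Con was 0.0568 without Con replicate 1 and 0.0565 without Con replicate 3. Against Vitro it lay between 0.0559 and 0.0727 without Vitro replicate 1, Vitro replicate 2, Vivo replicate 1 or Vivo replicate 2, and was 0.0713 when the 2 groups were fitted alone. Without Vivo replicate 3 both calls held, with log2 changes of -1.03 (adjusted p = 0.0075) and -0.89 (adjusted p = 0.0098).

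P4ha1 (ENSRNOG00000050655), the alpha subunit that most cells use, did not pass. It measured 659, 527 and 624 CPM in Con, 577, 381 and 413 in Vitro and 559, 496 and 479 in Vivo, and the groups overlapped in every pair. Its log2 change was -0.24 ± 0.17 in Vivo against Con (adjusted p = 0.41) and 0.16 ± 0.17 in Vivo against Vitro (adjusted p = 0.57). The ratio of P4ha2 to P4ha1 within a library, taken from the authors' FPKM so that gene length is allowed for, was 1.25, 1.61 and 1.26 in Con and 1.56, 1.93 and 1.5 in Vitro. In Vivo it was 0.80, 0.73 and 1.16, below every cultured library, and only Vivo replicate 3 kept more P4ha2 than P4ha1. The mean ratio was lower in Vivo by a factor of 0.642 against Con and 0.531 against Vitro. An exact two-sided permutation test gave p = 0.1 for each, the smallest value that 3 libraries against 3 allow, and 0.15 after adjustment over the 15 tests of ratios.

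Of the lysyl hydroxylases, Plod2 passed the test. Plod2 (ENSRNOG00000030183), the telopeptide lysyl hydroxylase, measured 573, 708 and 665 CPM in Con, 843, 699 and 673 in Vitro and 458, 376 and 311 in Vivo. The highest Vivo library was below the lowest library of either cultured group. Plod2 fell by 0.77 ± 0.17 on the log2 scale against Con (adjusted p = 0.0245) and by 0.95 ± 0.17 against Vitro (adjusted p = 0.0074), or 1.70-fold and 1.93-fold lower. The call against Vitro held in all 18 alternative analyses, with log2 changes from -1.10 to -0.79. The call against Con was lost without Con replicate 2 (adjusted p = 0.0586), Con replicate 3 (adjusted p = 0.0951) or Vivo replicate 2 (adjusted p = 0.0621), and with the 2 groups fitted alone (adjusted p = 0.0524). Without Vivo replicate 3 the log2 changes were -0.66 (adjusted p = 0.0223) and -0.84 (adjusted p = 0.0078).

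Plod1 (ENSRNOG00000007763), which hydroxylates lysines within the helix, measured 788, 574 and 756 CPM in Con, 604, 419 and 422 in Vitro and 471, 459 and 644 in Vivo. The groups overlapped in all pairs. Its log2 change was -0.43 ± 0.20 in Vivo against Con (adjusted p = 0.21) and 0.12 ± 0.20 in Vivo against Vitro (adjusted p = 0.72). Plod3 (ENSRNOG00000001417), which also adds sugars to hydroxylysine, had 413, 384 and 403 CPM in Con, 359, 288 and 302 in Vitro and 332, 340 and 393 in Vivo. Its log2 changes of -0.17 ± 0.13 against Con and 0.17 ± 0.13 against Vitro did not pass (adjusted p = 0.42 and 0.43). The ratio of Plod2 to Plod3 by FPKM was 1.12, 1.52 and 1.34 in Con, 1.82, 2.02 and 1.79 in Vitro and 1.12, 0.90 and 0.61 in Vivo. All groups were separate in this ratio, Vivo lowest and Vitro highest, although the highest Vivo value (1.117) lay close to the lowest Con value (1.120). Each of the 3 pairs of groups gave p = 0.1 in the exact permutation test. The ratio of Plod2 to Plod1 was 0.566, 0.979 and 0.691 in Con, 1.07, 1.32 and 1.24 in Vitro and 0.754, 0.645 and 0.367 in Vivo. Here Vivo overlapped Con (exact p = 0.5) and lay below Vitro (exact p = 0.1), so Plod2 was not separated from Plod1 in Vivo against Con.

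**Figure D2:**
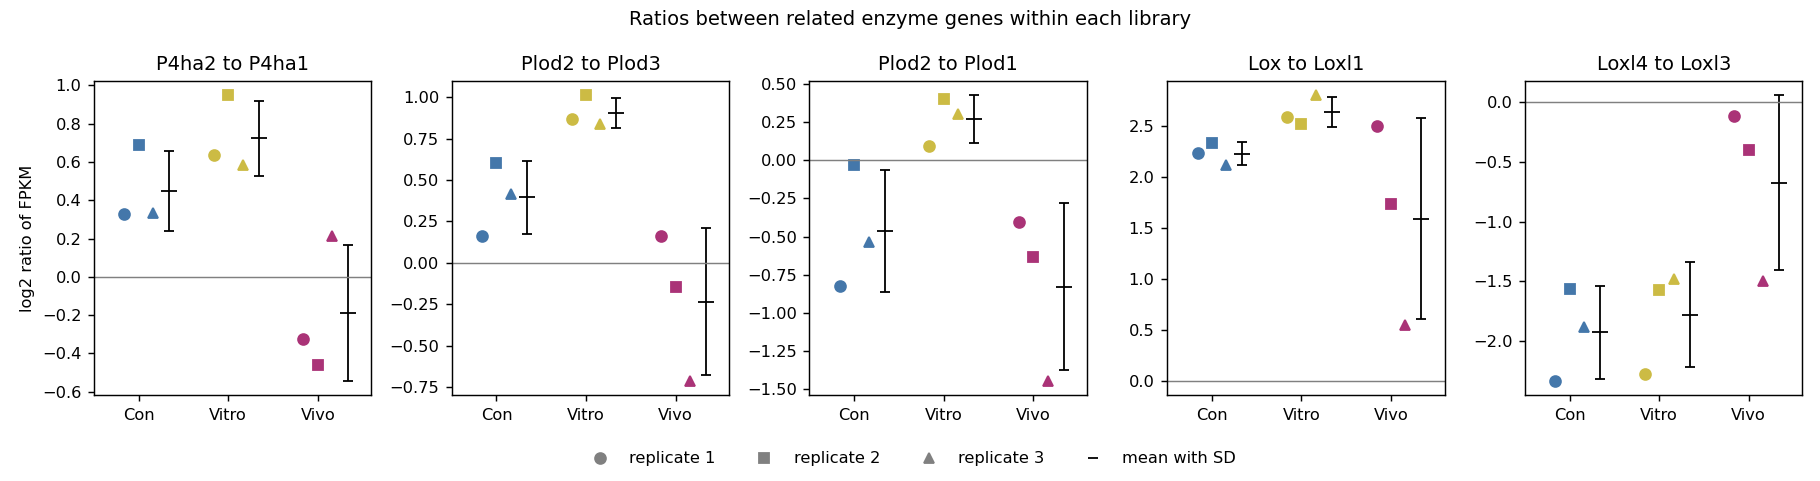
Log2 ratio of the authors' FPKM between related enzyme genes (y axis) within each library, by group (x axis), with the mean and SD over 3 libraries in black and a grey line at equal levels. P4ha2 to P4ha1 and Plod2 to Plod3 are lower in each Vivo library than in each cultured library, Plod2 to Plod1 is lower than in each Vitro library but overlaps Con, and in the ratios of Lox to Loxl1 and Loxl4 to Loxl3 Vivo replicate 3 lies far from the other Vivo libraries.

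The promoters of the 2 hydroxylase genes that fell against both cultured groups, of P4ha1, which did not pass, and of Loxl3 are shown here because hydroxylase genes are known hypoxia targets. The RefSeq table for GRCr8 held promoters for 8 of the 10 genes, from 250 bases before to 50 after the start, and not for Lox or Loxl2. Capitals mark ACGTG and GCGTG, the core of the hypoxia response element, and their reverse complements CACGT and CACGC. No matches overlap in these promoters.
Plod2 promoter (GRCr8, chr8:101964068-101964367, plus strand): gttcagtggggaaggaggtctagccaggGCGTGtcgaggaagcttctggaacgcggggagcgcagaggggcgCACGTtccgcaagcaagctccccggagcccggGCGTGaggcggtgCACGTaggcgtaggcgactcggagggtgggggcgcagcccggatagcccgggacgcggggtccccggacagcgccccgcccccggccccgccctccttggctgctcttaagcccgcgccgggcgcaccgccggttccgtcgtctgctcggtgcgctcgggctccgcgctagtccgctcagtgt
P4ha2 promoter (GRCr8, chr10:38743644-38743943, plus strand): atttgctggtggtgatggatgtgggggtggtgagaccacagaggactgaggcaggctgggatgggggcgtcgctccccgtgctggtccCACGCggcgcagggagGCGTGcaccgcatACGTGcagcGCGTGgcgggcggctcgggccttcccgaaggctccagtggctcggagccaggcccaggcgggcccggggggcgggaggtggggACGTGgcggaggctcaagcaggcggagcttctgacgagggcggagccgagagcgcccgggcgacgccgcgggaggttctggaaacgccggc
P4ha1 promoter (GRCr8, chr20:27844796-27845095, plus strand): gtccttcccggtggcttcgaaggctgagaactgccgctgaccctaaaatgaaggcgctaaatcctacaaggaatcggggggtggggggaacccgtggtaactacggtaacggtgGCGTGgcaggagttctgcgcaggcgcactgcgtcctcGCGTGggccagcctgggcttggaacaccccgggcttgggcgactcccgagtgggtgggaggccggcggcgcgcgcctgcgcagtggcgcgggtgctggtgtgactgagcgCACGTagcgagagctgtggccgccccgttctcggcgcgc
Loxl3 promoter (GRCr8, chr4:117098108-117098407, plus strand): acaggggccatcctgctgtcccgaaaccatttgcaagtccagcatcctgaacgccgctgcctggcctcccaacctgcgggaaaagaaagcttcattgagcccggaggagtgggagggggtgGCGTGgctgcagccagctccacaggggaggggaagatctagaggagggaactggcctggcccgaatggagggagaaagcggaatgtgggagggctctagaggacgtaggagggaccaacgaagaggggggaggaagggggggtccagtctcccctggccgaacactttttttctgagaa
P4ha2 holds 5 matches (2 of ACGTG and 3 of GCGTG) and Plod2 holds 4 (2 and 2). P4ha1 holds 3, Plod3 holds 2, Plod1 and Loxl3 hold 1 each, and Loxl1 and Loxl4 hold none. At least 1 match was present in 41.6% of the 33465 promoters of this length and at least 3 in 8.2%. These 4 promoters have a GC content of 61.3% to 73.7%, against a median of 51.7%. A match is a string of letters and was not tested as a binding site.

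Of the lysyl oxidases, Loxl3 was the one that passed a test. Loxl3 (ENSRNOG00000061373), which in mice is needed for palate and spine formation, had 126, 116 and 125 CPM in Con, 110, 99.4 and 96.1 in Vitro and 73.0, 82.1 and 94.3 in Vivo. The 3 groups did not overlap, with Con highest and Vivo lowest. It fell by 0.56 ± 0.13 on the log2 scale in Vivo against Con (adjusted p = 0.0268), or 1.47-fold lower. The change against Vitro, -0.29 ± 0.13, did not pass (adjusted p = 0.17), and neither did Vitro against Con, at -0.27 ± 0.13 (adjusted p = 0.47). The call against Con was the least stable: it was lost without Con replicate 1 (adjusted p = 0.0957), Con replicate 3 (0.106), Vitro replicate 2 (0.0504), Vivo replicate 1 (0.0768) or Vivo replicate 2 (0.067), and with the 2 groups alone (0.0655). Without Vivo replicate 3 Loxl3 was called against Con (-0.68, adjusted p = 0.0052) and also against Vitro (-0.41, adjusted p = 0.0273).

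Lox (ENSRNOG00000014426), the main collagen and elastin crosslinking enzyme, was by FPKM the highest of the 10 genes in every group. It measured 2445, 2601 and 2561 CPM in Con, 2910, 3183 and 3290 in Vitro and 2817, 2070 and 1274 in Vivo. Every Vitro library was above every Con and Vivo library, and the Vivo libraries were spread more widely than those of either cultured group. The log2 change was -0.30 ± 0.24 in Vivo against Con (adjusted p = 0.44), -0.61 ± 0.24 in Vivo against Vitro (adjusted p = 0.14) and 0.30 ± 0.24 in Vitro against Con (adjusted p = 0.70). Leaving out Vivo replicate 1 gave a call against Vitro (-0.90, adjusted p = 0.0322), and leaving out Vivo replicate 3 gave -0.37 (adjusted p = 0.11). Lox has the longest implied transcript of the 10 genes, 6.36 kb, and Plod2 the next, 4.96 kb. Both had their lowest value in Vivo replicate 3, the Vivo library whose deviation fell with gene length. Loxl1, with the shortest, 3.35 kb, had its highest value there. Loxl2, of nearly the same length as Loxl1, had its lowest value there. Among the Vivo libraries, Loxl3 (4.6 kb), Plod3 (4.01 kb), Plod1 (3.87 kb) and P4ha2 (3.69 kb) were also highest in replicate 3. Loxl4 (4.19 kb) and P4ha1 (3.57 kb) were lowest in it. The part of gene length in these values was not tested. After correction of every library for its length trend, Plod2 was still called, at -0.73 against Con (adjusted p = 0.0124) and -0.90 against Vitro (adjusted p = 0.0037), and Lox was not (-0.52 against Vitro, adjusted p = 0.078).

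Loxl4 (ENSRNOG00000015727), a family member with scavenger receptor domains, had the largest positive change of the 10 and the lowest level. It measured 23.7, 35.5 and 31.0 CPM in Con, 20.6, 31.4 and 30.7 in Vitro and 59.0, 60.8 and 26.7 in Vivo. Vivo replicates 1 and 2 were above every cultured library and Vivo replicate 3 was among them. The log2 change was 0.70 ± 0.31 against Con (adjusted p = 0.17) and 0.83 ± 0.31 against Vitro (adjusted p = 0.12). Without Vivo replicate 3 it was 0.97 (adjusted p = 0.0203) and 1.10 (adjusted p = 0.0111), so that library decides the call.

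Loxl1 and Loxl2 gave no call in the 3 comparisons or in the 18 alternatives. Loxl1 (ENSRNOG00000008680), which in mice maintains elastic fibres, measured 277, 282 and 308 CPM in Con, 251, 303 and 247 in Vitro and 262, 330 and 426 in Vivo. Its log2 change in Vivo was 0.23 ± 0.18 against Con (adjusted p = 0.43) and 0.34 ± 0.18 against Vitro (adjusted p = 0.24), and without Vivo replicate 3 it shrank to 0.01 and 0.13. Loxl2 (ENSRNOG00000016758), which crosslinks collagen IV of basement membranes, measured 375, 292 and 295 CPM in Con, 367, 277 and 324 in Vitro and 402.5, 253 and 215 in Vivo. Its log2 change was -0.14 ± 0.23 against Con (adjusted p = 0.72) and -0.15 ± 0.23 against Vitro (adjusted p = 0.69). The ratio of Lox to Loxl1 by FPKM ran from 1.46 in Vivo replicate 3 to 5.65 in Vivo replicate 1, against 4.33 to 5.04 in Con and 5.75 to 6.96 in Vitro.

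**Figure D3:**
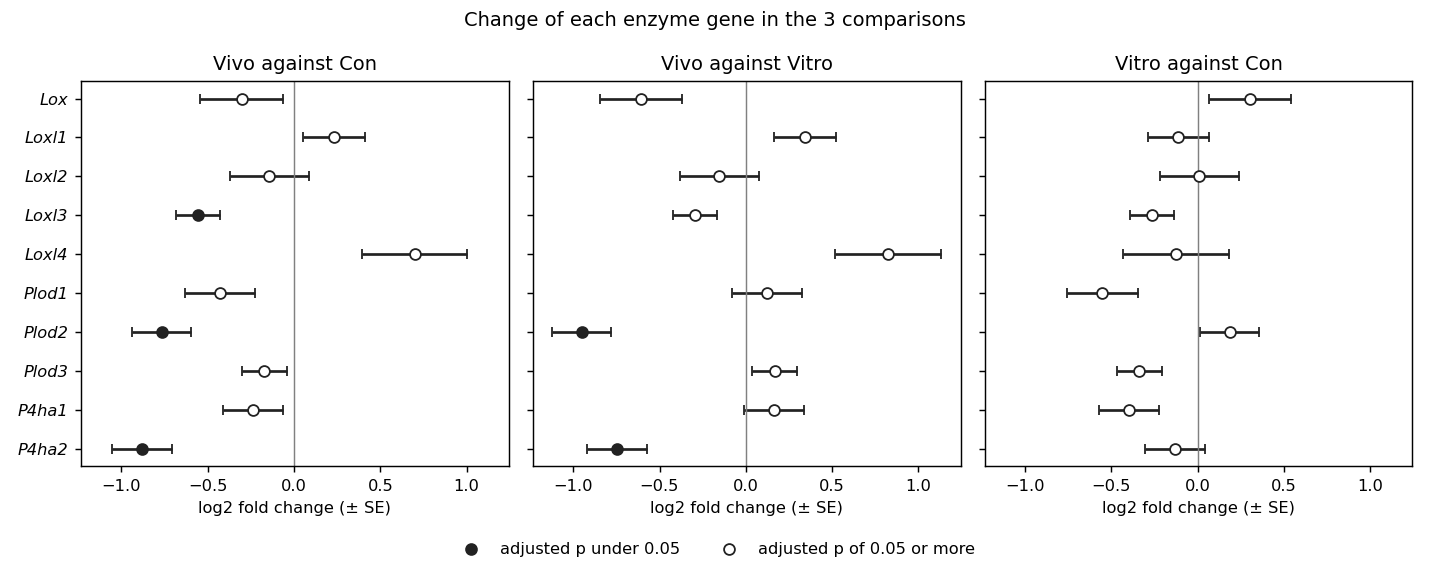
Log2 fold change of each enzyme gene (x axis, ± SE) in the 3 comparisons, from edgeR on all 9 libraries. Filled points have an adjusted p under 0.05. Filled points are P4ha2, Plod2 and Loxl3 in Vivo against Con and P4ha2 and Plod2 in Vivo against Vitro, all below 0.

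Vitro against Con asks what the same period of further culture did. None of the 10 genes passed in edgeR, where 0.0324% of all genes tested did (4 of 12364), 0.00809% higher and 0.0243% lower. At an unadjusted p under 0.05 there were 3 of the 10, all lower in Vitro, where 11.4% of all genes passed (5.28% lower): Plod1 (-0.55 ± 0.21), P4ha1 (-0.40 ± 0.17) and Plod3 (-0.34 ± 0.13). Their adjusted p-values in edgeR were 0.35, 0.43 and 0.37. DESeq2 also called 0 of the 10. With library weights in limma 4 were called, these 3 and Loxl3, all lower, in a setting that called 2690 genes in all. Libraries did not overlap for Lox (higher in Vitro) and for Loxl3 and Plod3 (lower), which is 3 of 10 where 21.4% of all genes did not overlap, 11.1% higher and 10.3% lower. In Vivo against Con 3 of the 10 did not overlap, all lower, where 33.5% of all genes did not (16.1% lower, 17.3% higher). In Vivo against Vitro 4 of 10 did not, all lower, where 35.2% did not (17.5% lower, 17.7% higher). With both directions counted, these shares are near the background.

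Levels between genes were compared by FPKM, which divides by length. In Con the order was Lox at 386.7 ± 20.5 FPKM (SD, n = 3), P4ha2 at 222.5 ± 10.0, Plod1 at 175.8 ± 27.0 and P4ha1 at 163.7 ± 18.7. Plod2 at 127 ± 15.7, Plod3 at 96.3 ± 2.76, Loxl2 at 92.1 ± 12.3 and Loxl1 at 82.6 ± 5.74 followed, then Loxl3 at 25.8 ± 1.63 and Loxl4 at 6.87 ± 1.39. Neighbours whose libraries overlapped in Con were Plod1 and P4ha1, Plod3 and Loxl2, and Loxl2 and Loxl1. In Vitro Plod2 took the third place, at 150.5 ± 12.1 FPKM, but its libraries overlapped those of P4ha1. In Vivo Lox was again first (330.1 ± 127), and the libraries of P4ha1 (146.5 ± 12.5) lay below it. From P4ha1 through Plod1, P4ha2, Loxl1, Plod3 and Loxl2 to Plod2 (78.5 ± 16) each gene overlapped the next. Plod2 and Plod3 nevertheless lay wholly below P4ha1, Plod1 and P4ha2 there. By mean FPKM P4ha2 took the second place in both cultured groups and the fourth in Vivo, where it overlapped P4ha1 and Plod1 above it and Loxl1 below it. Plod2 took the fifth place in Con, the third in Vitro and the eighth in Vivo. Loxl3 and Loxl4 took the last places in all groups.

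Summed over the family, the lysyl oxidases took 3245 to 3327 CPM in Con, 3658 to 3988 in Vitro and 2036 to 3613 in Vivo. Vivo replicate 1 thus lay above the Con libraries and Vivo replicates 2 and 3 below them. The lysyl hydroxylases summed to 1666 to 1825 CPM in Con, 1396 to 1806 in Vitro and 1176 to 1348 in Vivo, with Vivo below both. P4ha1 and P4ha2 together came to 1386 to 1526 CPM in Con, 1046 to 1507 in Vitro and 876 to 1025 in Vivo. Vivo was again below both, by little in the case of Vitro. P4ha3, another alpha subunit gene, named after its values were seen, is not in this sum. It was at 289.6 ± 24.8 CPM in Con, 226 ± 29.2 in Vitro and 225.5 ± 29.5 in Vivo, and was not called in edgeR. A sum with P4ha3 was not computed. Against the fibrillar collagen genes Col1a1, Col1a2, Col3a1, Col5a1 and Col5a2, the CPM of the 10 enzyme genes together came to 8.63% to 10.9% of that of collagen in Con, 11.7% to 16.3% in Vitro and 9.73% to 12.7% in Vivo. The Vivo libraries overlapped both cultured groups in this measure. Sums over these genes are descriptions and were not tested.

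Annotation terms shared by the enzymes were chosen after their values were seen. Among the 17 tested genes that the deposited table annotates with ascorbate binding, 4 were lower in Vivo than in Con and 5 lower than in Vitro, and 0 were higher in either. Over all genes tested, 4.56% were lower and 5.17% higher against Con, and 5.52% lower and 5.38% higher against Vitro. The 5 hydroxylases described above are among the 17, and Plod2 and P4ha2 are among the genes called in both comparisons. The others called were Egln3, a prolyl hydroxylase that acts on hypoxia-inducible factor, Pam, a peptide-amidating enzyme that needs both copper and ascorbate, and, against Vitro alone, P3h2. Pam, named after its values were seen, went from 372.2 ± 22.4 CPM in Con and 378.1 ± 94.1 in Vitro to 223.9 ± 38.1 in Vivo (adjusted p = 0.040 and 0.032). Of the 12 genes left without the 5 hydroxylases, 2 and 3 were lower, and their median log2 changes were -0.03 and 0.01. Copper binding was annotated for all 5 lysyl oxidases, and of the 20 other tested genes with that term 2 were lower in Vivo than in Con and 0 higher, and 3 lower and 1 higher than in Vitro.

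Few of the enzymes and chaperones that act beside the 10 genes were called. Among all genes tested, 9.73% were called against Con and 10.9% against Vitro. The lists are short, and a difference from these shares was not tested. Of 14 tested genes for other collagen modification and folding, 0 passed in Vivo against Con and 1 fell in Vivo against Vitro, with median log2 changes of -0.09 and 0.13. That gene was P3h2, a prolyl 3-hydroxylase, at 5.12 ± 1.65 CPM in Vitro, 1.46 ± 1.09 in Con and 0.84 ± 0.48 in Vivo. Its log2 change against Vitro was -2.59 ± 0.58 (adjusted p = 0.020), lost without Vitro replicate 2 (adjusted p = 0.0794) or Vivo replicate 1 (adjusted p = 0.0545). The beta subunit gene P4hb, named after its values were seen, was at 2679 ± 78.9 CPM in Con, 2395 ± 262 in Vitro and 2080 ± 136 in Vivo (adjusted p = 0.11 and 0.34). Of 7 tested genes for ascorbate, iron and redox supply, 0 passed in edgeR in either comparison. Ero1a, an oxidase of the endoplasmic reticulum and the list's gene with the highest CPM, had log2 changes of -0.33 ± 0.25 and 0.10 ± 0.25.

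Some procollagen processing genes were called, in both directions. Of 11 tested, 2 rose and 1 fell in Vivo against Con and 3 rose in Vivo against Vitro, with medians of 0.04 and 0.12. Over all genes tested, 5.17% were higher and 4.56% lower against Con, and 5.38% higher and 5.52% lower against Vitro. Bmp1, the procollagen C-proteinase that also activates pro-Lox, rose from 195.1 ± 28.2 CPM in Con and 133.5 ± 8.87 in Vitro to 373.3 ± 34.4 in Vivo. Its log2 changes were 0.94 ± 0.14 (adjusted p = 0.0046) and 1.48 ± 0.14 (adjusted p = 3.1e-04). Adamts14, a procollagen N-proteinase, rose from 20.7 ± 4.12 and 20.2 ± 3.88 CPM to 45.6 ± 5.80 (adjusted p = 0.0075 and 0.0046). Adamts2, another N-proteinase, rose against Vitro by 0.90 ± 0.25 on the log2 scale, at the edge of the threshold (adjusted p = 0.04997), and the call was lost in 11 of 18 alternatives, among them the fits without Vivo replicate 3 (adjusted p = 0.10) and without Vitro replicate 2 (adjusted p = 0.17). Pcolce, which enhances the C-proteinase, fell from 1759 ± 177 CPM in Con to 972.7 ± 232 in Vivo (adjusted p = 0.022), a call lost in 4 of the fits that left out a library, with an adjusted p of 0.0828 or 0.0897 when Con replicate 1 or 3 was dropped and 0.0633 or 0.0641 when Vivo replicate 1 or 2 was, and with the 2 groups alone (0.0506).

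Substrates and scaffolds of the crosslinking enzymes also moved in both directions. Of 16 tested, 2 rose and 3 fell in Vivo against Con, and 3 rose and 2 fell in Vivo against Vitro. Their median log2 changes were -0.52 and -0.08. Of all genes tested, 5.17% were higher and 4.56% lower against Con, and 5.38% higher and 5.52% lower against Vitro. Elastin (Eln), a lysyl oxidase substrate, was at 0.289 ± 0.160 CPM in Vitro, 1.33 ± 0.769 in Con and 519.7 ± 216 in Vivo (8.60 ± 0.50 on the log2 scale against Con, adjusted p = 5.2e-05, and 10.76 ± 0.57 against Vitro, adjusted p = 2e-05). Postn, which encodes a matrix protein that brings Bmp1 to pro-Lox, rose to 1125 ± 91.9 CPM from 184.4 ± 61.8 in Con and 221.9 ± 63.9 in Vitro (adjusted p = 0.0011 and 0.0010). Fn1, which encodes fibronectin, fell from 16420 ± 1250 CPM in Con and 15210 ± 852 in Vitro to 7636 ± 1173 (adjusted p = 0.0038 and 0.0040). Dcn, a small proteoglycan that binds collagen fibrils, rose against Vitro by 1.21 ± 0.25 (adjusted p = 0.015), a call lost without Vitro replicate 2 (adjusted p = 0.0716) or Vitro replicate 3 (adjusted p = 0.0579). The other genes called, named after their values were seen, were Col5a2 and Col4a2. Col5a2 was lower against Con (-1.03 ± 0.18, adjusted p = 0.0090) and against Vitro (-0.68 ± 0.18, adjusted p = 0.040). Col4a2 was lower against Con (-0.91 ± 0.24, adjusted p = 0.041). Neither was recomputed in the alternatives.

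**Figure D4:**
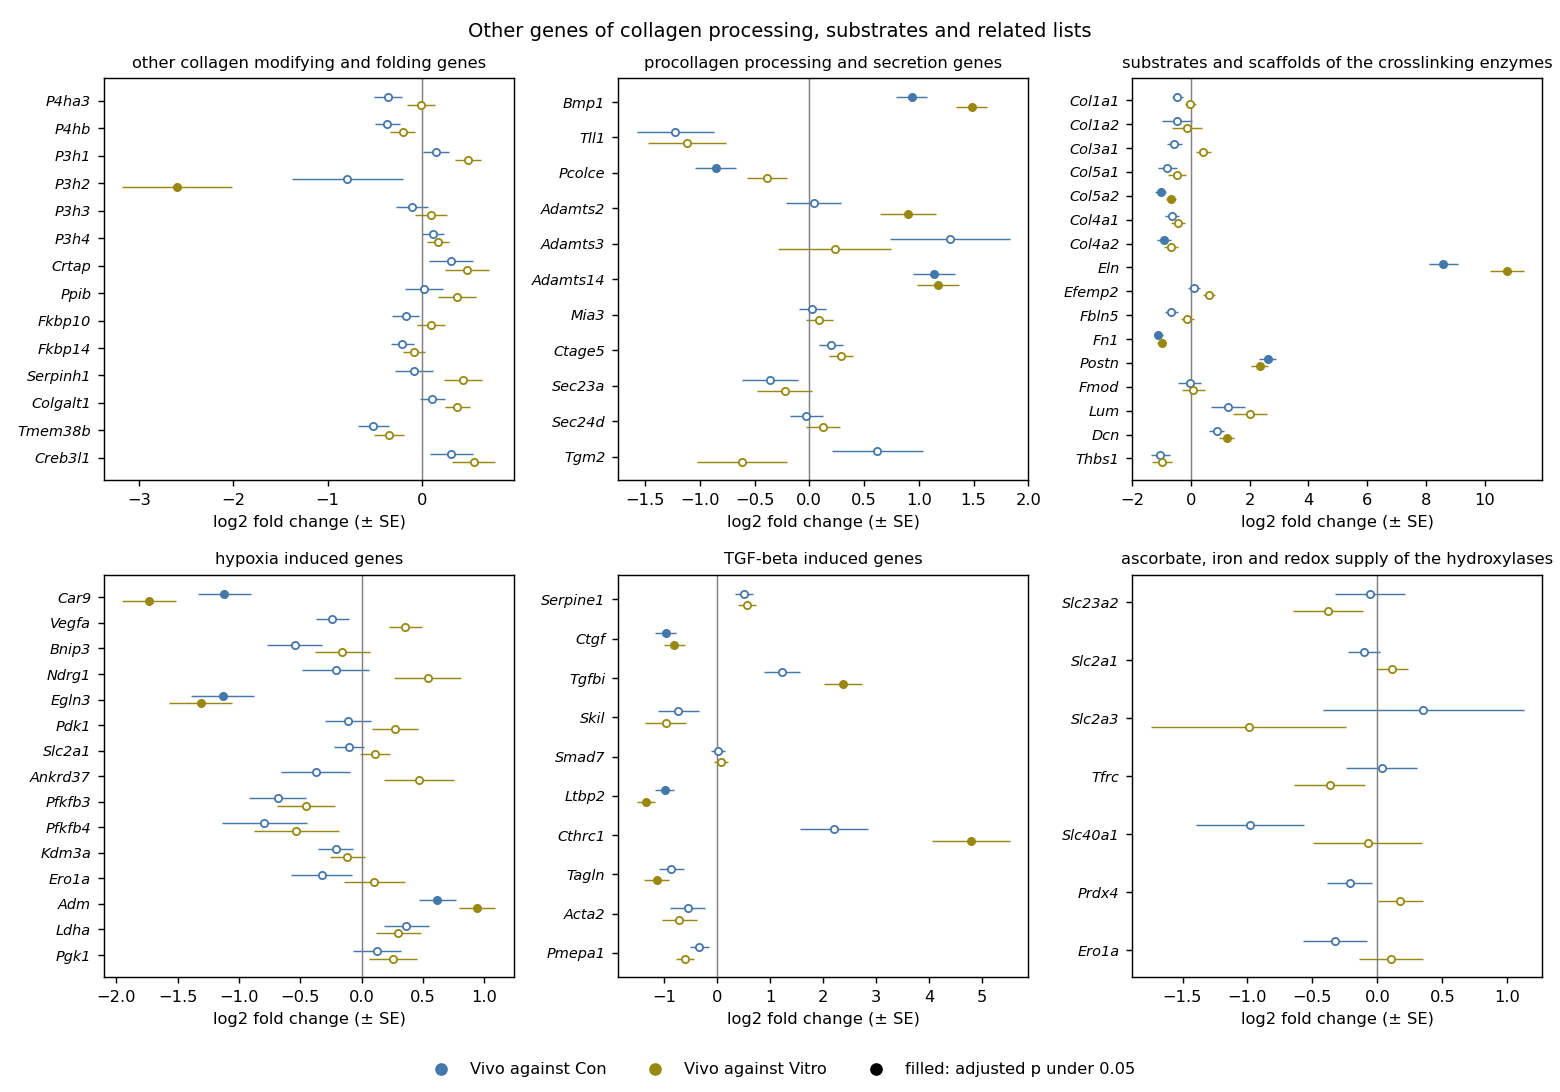
Log2 fold change (x axis, ± SE, a separate scale for each panel) of the tested genes of 6 lists around the enzymes, in Vivo against Con (blue) and Vivo against Vitro (yellow-brown). Filled points have an adjusted p under 0.05, and they include Bmp1 and Adamts14 above 0 and Car9, Egln3, Fn1 and Ltbp2 below 0 in both comparisons.

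Of 15 tested hypoxia-induced genes outside the 10, 1 rose and 2 fell in each comparison. The median log2 change was -0.24 against Con and 0.11 against Vitro. Among all genes tested, 5.17% were higher and 4.56% lower against Con, and 5.38% higher and 5.52% lower against Vitro. Car9, a carbonic anhydrase, fell from 16.7 ± 2.99 CPM in Con and 25.5 ± 1.86 in Vitro to 7.69 ± 2.18 in Vivo (adjusted p = 0.014 and 0.0013). Egln3 fell from 118.7 ± 32.9 and 134.4 ± 32.1 CPM to 54.1 ± 12.6 (adjusted p = 0.026 and 0.011). Adm, which encodes adrenomedullin, rose from 326.7 ± 27.0 and 261 ± 22.9 CPM to 501.2 ± 85.0 (adjusted p = 0.032 and 0.0040). The remaining 12, Vegfa, Slc2a1, Pdk1 and Bnip3 among them, did not pass in edgeR in either comparison.

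Of 10 tested TGF-beta induced genes, 0 rose and 2 fell in Vivo against Con, and 2 rose and 3 fell in Vivo against Vitro. Their median log2 changes were -0.45 and -0.66. The shares over all genes tested were 5.17% higher and 4.56% lower against Con, and 5.38% higher and 5.52% lower against Vitro. Cthrc1, a secreted matrix protein, rose from 4.96 ± 3.92 CPM in Vitro to 136.1 ± 19.8 in Vivo (4.78 ± 0.73 on the log2 scale, adjusted p = 0.0033). Tgfbi, a collagen-binding matrix protein, rose from 54.3 ± 13.6 to 282.3 ± 86.8 CPM (adjusted p = 0.0030). Ltbp2, which binds fibrillin microfibrils, fell from 2015 ± 162 CPM in Vitro and 1577 ± 322 in Con to 789.9 ± 78.4 (adjusted p = 0.0014 and 0.0083). Tagln, an actin-binding protein, fell against Vitro by 1.15 ± 0.24 on the log2 scale (adjusted p = 0.016), and the call was lost without Vitro replicate 1 (adjusted p = 0.0503) or Vivo replicate 2 (adjusted p = 0.0518). Ctgf, named after its values were seen, was lower against Con (-0.97 ± 0.20, adjusted p = 0.018) and against Vitro (-0.82 ± 0.20, adjusted p = 0.028). In Vitro against Con, 0 genes of these 6 lists passed in edgeR.

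For the 3 enzyme genes with an adjusted p under 0.05 for any difference among the groups, a call that 10.0% of all genes tested had, the genes with the most similar pattern were found. Likeness was the root mean square difference in centred log2 CPM over the 9 libraries, among 9416 genes with a mean of at least 5 CPM. Nearest to Plod2 were Nab1 (0.077), Usp46 (0.081) and Tbc1d19 (0.12), against a median of 0.52 over all those genes. Nab1, a corepressor of EGR factors, was at 145.6 ± 13.1 CPM in Con, 165 ± 5.70 in Vitro and 83.2 ± 18.3 in Vivo. Nearest to P4ha2 were Pygl (0.093), Bgn (0.13) and Fgfrl1 (0.13), with a median of 0.51. Bgn, which encodes the collagen-binding proteoglycan biglycan, was at 5392 ± 347, 4479 ± 798 and 2706 ± 557 CPM, and Pygl, a glycogen phosphorylase, at 199.3 ± 13.4, 175.1 ± 28.5 and 106.3 ± 23.6. Nearest to Loxl3 were the lysosomal genes Pld3 (0.057) and Tpp1 (0.077) and Fam188a (0.079), with a median of 0.37. The measure describes these libraries and was not tested.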

How the data were processed

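Expression was measured by RNA sequencing of 9 libraries, 3 each of the Con, Vitro and Vivo groups. Libraries were made with a stranded mRNA kit, per the labels' protocols, and reads were aligned with HISAT2 to Rnor_6.0, per the submitters' processing notes. Which program counted reads or made the FPKM, and whether it used strand, is not given in the sources used here. Reads of overlapping, antisense or closely related genes may therefore be assigned either way. The deposited table gives whole-number counts per gene, not normalised, and the authors' FPKM, per the file headers.

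The counts were tested with edgeR 4.0.16 under R 4.3.3: filterByExpr, TMM scaling, and 1 quasi-likelihood fit of 3 groups to all 9 libraries (6 residual degrees of freedom), two-sided, with Benjamini-Hochberg adjustment over all 12364 genes tested and a threshold of 0.05. The SE of a log2 fold change is its size over the square root of F. Implied length is the median of counts per FPKM and library total. Alternatives used DESeq2 1.42.0 and limma 3.58.1 (voom with sample quality weights, or log2(FPKM + 1) on the genes tested), other filters and size factors, each library left out, groups fitted in pairs, length offsets and the replicate number as a block. The methods were also run on simulated counts. These had no deviating library and no length trend, so that run does not show how such features move the calls. Figures used matplotlib 3.10.9.

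The members and lists were chosen with earlier results of these data known. Genes were named by rule: the 10 members, up to 4 called genes per list with the largest change (otherwise the gene with the highest CPM), and the 3 nearest genes of each member that differed among groups. A gene outside the rule is marked where it stands. No 2 libraries of a group agreed within counting noise. A count of 0 in a library allows up to 3 counts, 0.163 to 0.172 CPM before scaling, which covers counting error only.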

Additional observations from a re-analysis of the deposited data

How the results depend on the processing

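Of the genes named, the direction of P4ha2, Plod2 and Loxl3 in Vivo held in all 18 alternatives for each comparison in which they were called. The number of the 10 enzyme genes called in Vivo against Con was 3, and it was 1 with the 2 groups fitted alone, 6 with library weights and 0 to 4 with 1 library left out. In Vivo against Vitro it was 2, and 1, 5 and 1 to 4 in the same settings. In Vitro against Con it was 0, and 4 with library weights, which gave Vivo replicate 3 a weight of 0.0942. In Vivo against Con the weights added calls for Loxl4 (higher), Plod1 and Plod3 (both lower). In Vivo against Vitro they added Loxl4 (higher), Lox and Loxl3 (both lower). The count of all genes called was 1203 in Vivo against Con, 2046 with DESeq2, 667 with the 2 groups alone, 3458 with library weights and 341 to 1706 with 1 library left out. It was 1348 in Vivo against Vitro, and 2077, 861, 2852 and 661 to 1660 in those settings. The count moved by over 1.5 times without Con replicate 1 (462), Con replicate 3 (341), Vitro replicate 2 (779), Vivo replicate 1 (667) or Vivo replicate 2 (747) in the former and without Vitro replicate 2 (661) or Vitro replicate 3 (689) in the latter. It was 4 in Vitro against Con, and 298, 0, 2690 and 0 to 54. In Vivo against Con 639 were higher and 564 lower, against 806 and 404 with log2(FPKM + 1).

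Reversals touched values near 0 that were not called. With 1 library left out, the log2 change of Loxl2 ran from -0.456 to 0.00952 against Con and from -0.465 to 0.00676 against Vitro, and that of Plod1 against Vitro from -0.0653 to 0.317, the reversed values being those without Vivo replicate 3. In Vitro against Con the same range was -0.0935 to 0.135 for Loxl2 and -0.272 to 0.0446 for Loxl4. With library weights Loxl2 was 0.0193 in Vivo against Vitro and -0.0469 in Vitro against Con, and Loxl4 was 0.00956 in the latter. The cause was not tested. Genes of the lists were recomputed only for the comparison in which each changed most, and those named after their values were seen were not recomputed.

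Libraries with the same replicate number deviated together in part. Here the deviation is from the mean of all libraries of the group. The correlation of these deviations was 0.0278 to 0.0573 for Vivo and Con, -0.015 to 0.112 for Vivo and Vitro and 0.0921 to 0.358 for Vitro and Con. In the same order, 6, 2 and 5 of 6 libraries correlated best with their own number, out of 3 candidates each. Since not every pair had a correlation over 0.1 and the labels do not say what a number marks, the numbers were not taken to pair the samples, and the best matches are a hint from the data only. With the replicate block the counts were 1203, 1243 and 7 genes and 3, 2 and 0 of the enzyme genes. The order of the 10 genes was the same by counts per kilobase of implied length. That length was derived from the same counts and FPKM, so the match was nearly fixed in advance and does not test the order. The lowest of these genes, Loxl4, had 20.6 CPM or more in every library, far above the 0.172 CPM that a count of 0 allows.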
